A study of Arabidopsis thaliana with 6 samples.

Results

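The transcripts of 37 nuclear genes of carbon fixation and photorespiration were compared between *lon1-2atg5-1* and *atg5-1* seedlings of *Arabidopsis thaliana*. The genes were chosen by gene identifier, out of 27444 genes in the files. They comprise 5 genes of Rubisco (4 small subunits and Rubisco activase), 16 of the Calvin-Benson cycle, and 16 of photorespiration, of which 2 act in the plastid, 7 in the peroxisome and 7 in the mitochondrion. RNA was sequenced from 3 libraries of each genotype, described as biological triplicate. Every library carried the T-DNA insertion *atg5-1* (SAIL_129_B07) in *ATG5*, an autophagy gene, in the *Col-0* background, and *lon1-2atg5-1* carried in addition the insertion *lon1-2* (SALK_012797) in *LON1*, which encodes the mitochondrial protease Lon1. Each genotype was thus represented by 1 insertion line. Whole seedlings were grown at 16 h light and 8 h dark under normal conditions, and were 7 days old in the series description and 10 days old in the paper's methods. *Col-0* and *lon1-2* single mutants were not analysed here, so each value is a difference between the *lon1-2atg5-1* and *atg5-1* lines. An effect of *lon1-2* and any other difference between the lines cannot be told apart.

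In the plastid, Rubisco joins CO2 to a sugar phosphate, and the Calvin-Benson cycle reduces the product and regenerates the acceptor. When Rubisco binds oxygen in place of CO2, it makes phosphoglycolate, which inhibits the cycle. Photorespiration recovers this carbon along a path through 3 organelles. Phosphoglycolate is dephosphorylated in the plastid, the resulting glycolate is oxidized to glyoxylate and aminated to glycine in the peroxisome, and glycine is split by the glycine decarboxylase complex of the mitochondrion, where part of it is turned into serine. Serine returns through the peroxisome as glycerate, which the plastid phosphorylates back into the cycle. In leaves the glycine decarboxylase complex is among the most abundant proteins of the mitochondrial matrix, the compartment in which Lon1 acts.

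Total counts lay between 22154558 and 22972992 in the *atg5-1* libraries and between 21964283 and 23929531 in *lon1-2atg5-1*. *LON1* was lower in each *lon1-2atg5-1* library, with a log2 fold change of -2.10 ± 0.22 (SE). *ATG5*, mutated in every library, still had reads, with 442 to 531 normalized counts (counts scaled to a common library size) in *atg5-1* and 625 to 1305 in *lon1-2atg5-1*. The biological coefficient of variation was 0.0631 among *atg5-1* libraries and 0.135 among *lon1-2atg5-1* libraries. The label of seedling tissue was checked against organ markers, none of which was at 0 in any library. Under the rule for calls in the next paragraph, 14.0% of all genes tested were called higher and 13.7% lower in *lon1-2atg5-1*. Of 12 root markers, 7 were called lower (58.3%) and none higher. Their summed normalized counts were 2619 to 3022 in *atg5-1* and 908 to 1055 in *lon1-2atg5-1*. Of 9 shoot markers 1 was called lower (11.1%) and none higher, with sums of 5017 to 5308 and 4039 to 4590. In whole seedlings a smaller share of cells of a type and less RNA per cell cannot be told apart, and the part of these marker differences in the values below was not tested.

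Of 20157 genes that entered edgeR's quasi-likelihood test, 14.0% were called higher and 13.7% lower in *lon1-2atg5-1*. A call required more than a 1.5-fold difference together with a Benjamini-Hochberg adjusted p below 0.05. Together 27.7% were called. Of the 37 genes, 36 were tested and 6 were called, 2 higher and 4 lower (16.7% of those tested). The genes called higher were *RBCS1B* and *PGK2*, both of carbon fixation in the plastid. The genes called lower were *GLYK* of the plastid, *GGT1* and *CAT2* of the peroxisome and *GLDP2* of the mitochondrion, all of photorespiration. Of the 21 Rubisco and Calvin-Benson genes none was called lower, beside 13.7% of all genes tested. Of the 15 photorespiratory genes tested none was called higher, beside 14.0% of all genes tested. These differences in share were not tested. Among 13 photorespiratory partner genes outside the 37, described below, 6 were called higher (46.2%) and 1 lower (7.69%). The median log2 fold change was 0.19 over the 21 Rubisco and Calvin-Benson genes, -0.32 over the 7 peroxisomal genes and 0.03 over the 7 mitochondrial genes, beside -0.0003 over all genes tested. The values of single genes within a compartment spread far more widely than these medians.

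**Figure D1:**
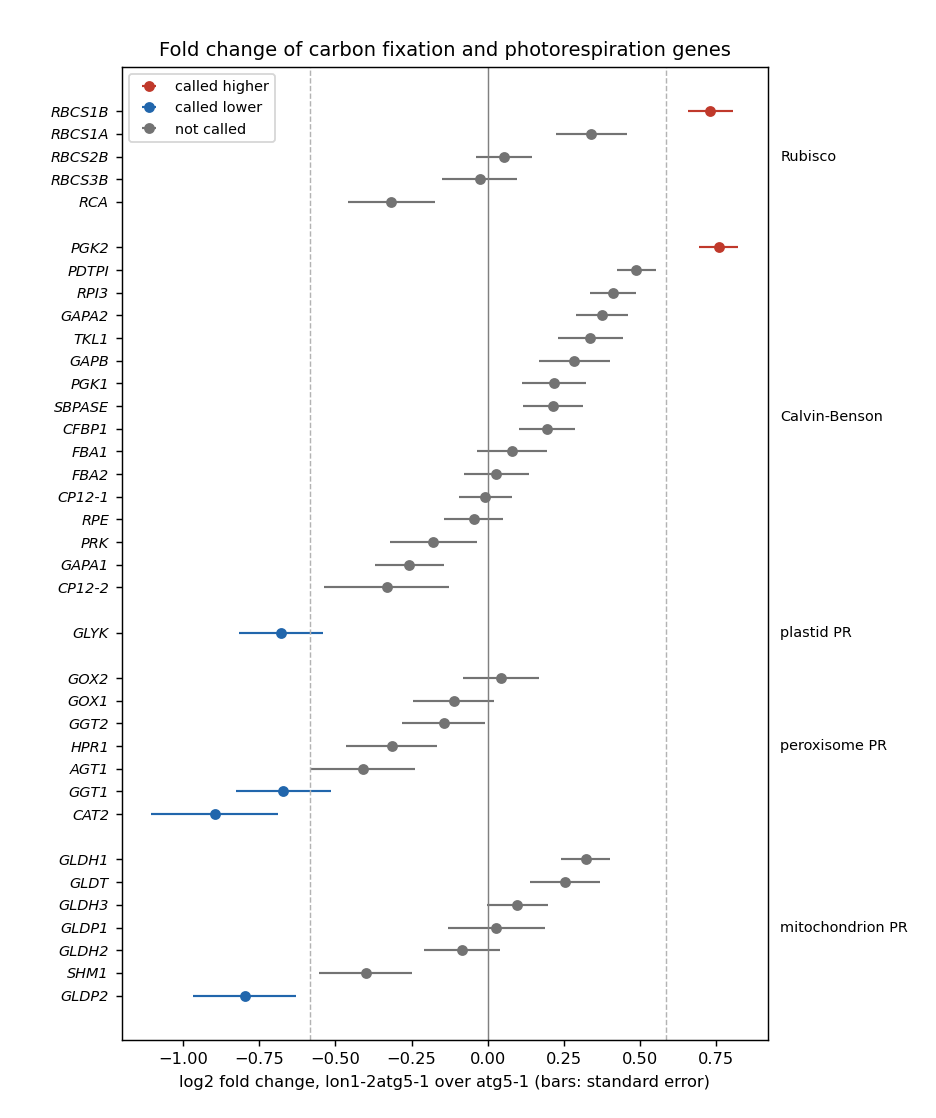
Log2 fold change of *lon1-2atg5-1* over *atg5-1* (x axis) for the 36 genes tested, grouped by step (PR, photorespiration), with bars for the standard error and dashed lines at a fold change of 1.5 in either direction. Red marks the 2 genes called higher, *RBCS1B* and *PGK2*, and blue the 4 called lower, *GLYK*, *GGT1*, *CAT2* and *GLDP2*.

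Without the fold threshold, 12 of the 36 genes passed the adjusted p, 8 higher and 4 lower, beside 53.5% of all genes, 27.7% higher and 25.8% lower. The 6 genes added in this way were all higher by less than 1.5-fold and were *RBCS1A*, *PDTPI*, *RPI3*, *GAPA2*, *TKL1* and *GLDH1*. The values of the 3 libraries of one genotype did not overlap those of the other for 16 genes, of which 10 were above and 6 below, or 44.4%, beside 63.2% of all genes tested, 32.3% above and 30.9% below. These shares are a description, and the difference between them was not tested.

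The small subunit of Rubisco is encoded by 4 genes in the nucleus. *RBCS1A* lies on chromosome 1, and *RBCS1B*, *RBCS2B* and *RBCS3B* lie next to each other on chromosome 5. The copies are alike, so a change in 1 copy rests on the reads that tell it from the others. The first 90 coding bases, read from the TAIR10.1 genome, are shown here with bases that differ from *RBCS1B* in capitals.
RBCS1B: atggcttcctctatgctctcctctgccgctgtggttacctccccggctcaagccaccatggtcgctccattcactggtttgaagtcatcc
RBCS2B: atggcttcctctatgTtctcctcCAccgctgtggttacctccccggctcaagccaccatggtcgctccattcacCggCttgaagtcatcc
RBCS3B: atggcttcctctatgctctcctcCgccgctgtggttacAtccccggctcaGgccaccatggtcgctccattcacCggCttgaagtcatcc
RBCS1A: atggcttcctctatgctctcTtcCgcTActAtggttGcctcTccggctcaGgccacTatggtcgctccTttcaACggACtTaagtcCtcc
In this stretch *RBCS2B* and *RBCS3B* each differ from *RBCS1B* at 5 positions and *RBCS1A* differs at 16. Over the whole transcripts, 6.14% of the windows of 125 bases in *RBCS1B* also occur in *RBCS3B*, and no window of *RBCS1A* or *RBCS2B* occurs in another gene.

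Of the 4 small subunit genes 1 was called, beside 27.7% of all genes tested. Normalized counts of *RBCS1B* (AT5G38430, chromosome 5, 15383167 to 15385320 of TAIR10.1) were 17820, 18628 and 17932 in *atg5-1* and 28964, 30811 and 30446 in *lon1-2atg5-1*. The groups lay far apart and each was tight, and the log2 fold change was 0.73 ± 0.07 (adjusted p = 0.000123), 65.9% higher. *RBCS1A* is the copy with the most transcript, and had the highest mean FPKM (fragments per kilobase of transcript, scaled to library size) of all genes in the files. Its normalized counts were 410133, 421170 and 411691 in *atg5-1* and 474468, 531211 and 567992 in *lon1-2atg5-1*. All 3 double mutant libraries were above all 3 of *atg5-1*, by a log2 fold change of 0.34 ± 0.12 (adjusted p = 0.0366), which is under the fold threshold. The adjusted p of *RBCS1A* reached 0.116 when a library was left out and 0.309 in the other fits, by limma on FPKM. The other copies overlapped with *atg5-1*. *RBCS2B* had normalized counts of 60090, 66984 and 68896 in *atg5-1* and 65353, 67411 and 70553 in *lon1-2atg5-1*. *RBCS3B* had 133478, 138007 and 134645 in *atg5-1* and 111489, 137424 and 149985 in *lon1-2atg5-1*. Neither gene passed the test, with log2 fold changes of 0.05 ± 0.09 and -0.03 ± 0.12.

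Rubisco activase removes inhibiting sugar phosphates from the active site of Rubisco, and its gene *RCA* had the third highest mean FPKM in the files. *RCA* had the lowest fold change of the Rubisco genes. Its normalized counts were 218252, 245331 and 231372 in *atg5-1* and 153822, 185207 and 219078 in *lon1-2atg5-1*. The double mutant libraries ranged from well below *atg5-1* to just inside its range, and the log2 fold change of -0.32 ± 0.14 did not pass the threshold (adjusted p = 0.0912).

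In the Calvin-Benson cycle, 11 of 16 genes had a fold change above 0 on the log2 scale and 5 below. Over all 20157 genes tested, 10071 were above 0 and 10086 below. In the cycle 1 gene was called higher (6.25%), beside 14.0% of all genes tested. Phosphoglycerate kinase, which phosphorylates the first product of carbon fixation, has 2 plastid genes here. *PGK2* (AT1G56190, chromosome 1, 21028137 to 21030684) had normalized counts of 4432, 4419 and 4430 in *atg5-1* and 7149, 7528 and 7770 in *lon1-2atg5-1*. The *atg5-1* libraries were nearly equal and all double mutant libraries were well above them, by a log2 fold change of 0.76 ± 0.06 (adjusted p = 6.11e-05), 69.0% higher. *PGK1* is the more abundant copy, with a mean of 784 FPKM in *atg5-1* against 102 FPKM for *PGK2*. Its normalized counts were 31503, 32831 and 31455 in *atg5-1* and 32357, 36988 and 41908 in *lon1-2atg5-1*. These ranges overlapped, and the log2 fold change of 0.22 ± 0.10 did not pass the test (adjusted p = 0.115).

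The next steps of the cycle differed within enzymes as well. Glyceraldehyde-3-phosphate dehydrogenase of the plastid, which carries out the reductive step, is built from GAPA and GAPB subunits. *GAPA2* rose by a log2 fold change of 0.37 ± 0.09 (adjusted p = 0.00674), below the fold threshold. *GAPA1* had a value of -0.26 ± 0.11 (adjusted p = 0.0848) and *GAPB* a value of 0.28 ± 0.12 (adjusted p = 0.0699), and neither passed the test. The plastid triose phosphate isomerase *PDTPI* had normalized counts of 7797, 7688 and 7680 in *atg5-1* and 10575, 11041 and 10844 in *lon1-2atg5-1*. The libraries of each genotype were close together and the groups apart, with a log2 fold change of 0.49 ± 0.06 (adjusted p = 0.00043), or 40.1% higher. Genes for regeneration of the acceptor included 2 further rises under 1.5-fold. Transketolase *TKL1*, which moves carbon units between sugar phosphates, had a log2 fold change of 0.34 ± 0.11 (adjusted p = 0.0276, and up to 0.0900 without 1 library). Ribose-5-phosphate isomerase *RPI3* had a value of 0.41 ± 0.08 (adjusted p = 0.00253), but 12.8% of its windows of 125 bases also occur in an antisense gene, AT3G01505. The aldolases *FBA1* and *FBA2*, the fructose bisphosphatase *CFBP1*, the sedoheptulose bisphosphatase *SBPASE* and the epimerase *RPE* had log2 fold changes between -0.05 and 0.21 and did not pass the test.

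Phosphoribulokinase, which makes the acceptor for Rubisco, and CP12, a small protein that binds phosphoribulokinase and glyceraldehyde-3-phosphate dehydrogenase in an inactive complex, did not pass either. *PRK* had a log2 fold change of -0.18 ± 0.14 and *CP12-1* a value of -0.01 ± 0.09. *CP12-2*, the lowest of the cycle, had normalized counts of 8853, 9331 and 9055 in *atg5-1* and 4919, 7085 and 9644 in *lon1-2atg5-1*. One double mutant library was above all *atg5-1* libraries and another far below them, and the log2 fold change was -0.33 ± 0.20 (adjusted p = 0.203). Without *lon1-2atg5-1* replicate 3, *CP12-2* was called lower (-0.59, adjusted p = 0.0049).

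Photorespiration in the plastid begins with phosphoglycolate phosphatase and ends with glycerate kinase. *PGLP1* (AT5G36700) could not be tested, since its normalized counts were 1 to 6 in each library, under the filter on low counts. Of its windows of 125 bases, 85.4% also occur in a second copy on chromosome 5, AT5G36790 (*PGLP1B*), and how the authors' counting divided reads between the copies is uncertain. *PGLP1B*, which is not among the 37, had normalized counts of 524, 427 and 498 in *atg5-1* and 512, 1588 and 321 in *lon1-2atg5-1*, with 1 high library and no call (adjusted p = 0.245). Glycerate kinase, which closes the path, was lower. *GLYK* (AT1G80380, chromosome 1, 30217116 to 30220595) had normalized counts of 9441, 10580 and 9536 in *atg5-1* and 4993, 5993 and 7487 in *lon1-2atg5-1*. Every double mutant library was below every *atg5-1* library, and the log2 fold change was -0.68 ± 0.14 (adjusted p = 0.00403), 37.5% lower. Without *lon1-2atg5-1* replicate 1, its fold change no longer exceeded 1.5 (-0.55, adjusted p = 0.00289).

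Of the 7 genes of peroxisomal steps, 6 were below 0 on the log2 scale, beside 10086 of the 20157 genes tested. Of these 7 genes, 2 were called lower (28.6%), beside 13.7% of all genes tested. Catalase, which breaks down the hydrogen peroxide made by glycolate oxidase, had the largest fall of the 36 genes. *CAT2* (AT4G35090, chromosome 4, 16700312 to 16703504) had normalized counts of 40117, 45924 and 40558 in *atg5-1* and 15867, 21680 and 30485 in *lon1-2atg5-1*. Groups did not overlap, although the double mutant libraries differed from each other 1.92-fold, and the log2 fold change was -0.90 ± 0.21 (adjusted p = 0.00741), 46.3% lower. *GGT1* encodes glutamate:glyoxylate aminotransferase, which forms glycine. *GGT1* (AT1G23310, chromosome 1, 8268385 to 8272021) had normalized counts of 69525, 78679 and 71673 in *atg5-1* and 36589, 44477 and 57050 in *lon1-2atg5-1*. All double mutant libraries were again below *atg5-1*, with a log2 fold change of -0.67 ± 0.16 (adjusted p = 0.00735), 37.2% lower. Without *lon1-2atg5-1* replicate 1 its value was -0.53 (adjusted p = 0.00587), short of the fold threshold.

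The second aminotransferase gene of this kind and the glycolate oxidases were not called. *GGT2*, with a mean of 34.2 FPKM in *atg5-1* against 1484 FPKM for *GGT1*, had normalized counts of 1684, 1918 and 1990 in *atg5-1* and 1343, 1722 and 1994 in *lon1-2atg5-1*. The ranges overlapped (log2 fold change -0.14 ± 0.14). *GOX2*, the highest peroxisomal gene by fold change, had normalized counts of 19947, 20830 and 20566 in *atg5-1* and 17513, 20641 and 25043 in *lon1-2atg5-1*. The double mutant libraries lay on either side of *atg5-1*, with a log2 fold change of 0.04 ± 0.13, and its neighbour *GOX1* had -0.11 ± 0.13. The return steps had values between these and the called genes. Serine:glyoxylate aminotransferase *AGT1* had a log2 fold change of -0.41 ± 0.17 (adjusted p = 0.0731) and hydroxypyruvate reductase *HPR1* a value of -0.32 ± 0.15 (adjusted p = 0.107). Neither passed the test over all libraries, and *AGT1* was called lower without *lon1-2atg5-1* replicate 3 (-0.61, adjusted p = 0.0028).

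In the mitochondrion, 4 of 7 genes were above 0 on the log2 scale and 3 below. Only 1 was called lower (14.3%), beside 13.7% of all genes tested. The P protein of glycine decarboxylase, which removes CO2 from glycine, is encoded by *GLDP1* and *GLDP2*. *GLDP2* (AT2G26080, chromosome 2, 11109003 to 11114291) had normalized counts of 24358, 26338 and 24943 in *atg5-1* and 11055, 13834 and 18620 in *lon1-2atg5-1*. The groups were apart, with a log2 fold change of -0.80 ± 0.17 (adjusted p = 0.0048), 42.5% lower. *GLDP1* (AT4G33010, chromosome 4, 15926652 to 15931422) had normalized counts of 46758, 55750 and 51538 in *atg5-1* and 41371, 51038 and 64600 in *lon1-2atg5-1*. The ranges overlapped fully, and the log2 fold change was 0.03 ± 0.16.

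Of the 37 genes, those for the remaining subunits and for the serine-forming enzyme were not called. Genes for the L protein, *MTLPD1* and *MTLPD2*, and a further serine-forming gene, *SHM2*, are not among the 37. These were called higher, with log2 fold changes of 0.71, 0.62 and 0.70. *GLDH1*, for an H protein that carries the aminomethyl group between the other subunits, had normalized counts of 8738, 9058 and 9409 in *atg5-1* and 10346, 11677 and 11989 in *lon1-2atg5-1*. All double mutant libraries were above *atg5-1*, by a log2 fold change of 0.32 ± 0.08 (adjusted p = 0.0101). The other H proteins, *GLDH2* and *GLDH3*, had values of -0.08 ± 0.12 and 0.10 ± 0.10, and *GLDT*, for the T protein, had 0.25 ± 0.12 (adjusted p = 0.0959). Serine hydroxymethyltransferase *SHM1*, which joins a one-carbon unit to glycine to form serine, had normalized counts of 62214, 67603 and 65092 in *atg5-1* and 38331, 49120 and 60186 in *lon1-2atg5-1*. Each was below *atg5-1*, but the log2 fold change of -0.40 ± 0.15 just missed the threshold (adjusted p = 0.0559).

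The balance between gene copies was compared per length, as each copy's percentage of the summed FPKM of its family, a comparison chosen after the values of single genes were seen. *GLDP2* made up 32.0%, 29.9% and 30.4% of the P protein transcripts in *atg5-1* and 19.5%, 19.7% and 20.7% in *lon1-2atg5-1*. This share was even among the double mutant libraries, although the level of *GLDP2* differed 1.68-fold between them. The exact permutation test of the ratio of *GLDP1* to *GLDP2* gave p = 0.1, the smallest that 3 libraries against 3 allow (two-sided), so this test cannot pass a threshold of 0.05 for any pair of copies. *RBCS1A* held 65.1% ± 0.64 (SD, n = 3) of the small subunit transcripts in *atg5-1* and 69.4% ± 0.11 in *lon1-2atg5-1*, *RBCS3B* held 19.1% and 15.8%, and *RBCS1B* held 1.91% and 2.67%. The *RBCS1B* share rests on its annotated exonic length of 1894 bases, against 935 for *RBCS2B*. The share of *PGK2* was 11.5% ± 0.26 and 16.0% ± 1.2, and that of *GAPA2* was 35.1% ± 0.53 and 45.8% ± 2.1. For phosphoglycerate kinase and GAPA the less abundant copy had a larger share in the double mutant than in *atg5-1*, and for the P protein a smaller one. Shares of the less abundant *GGT2* (2.25% and 3.22%) and *GOX2* (40.4% and 43.1%) were also larger in every double mutant library. Those of *FBA1* (26.0% and 26.6%), *CP12-1* (40.9% and 47.3%) and *GLDH2* (3.70% and 3.08%) overlapped between the genotypes.

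Catalase showed the widest shift of shares, but with *CAT3*, which is not among the 37. *CAT3* had normalized counts of 30267, 30131 and 28349 in *atg5-1* and 67009, 55740 and 45341 in *lon1-2atg5-1*. Groups were apart and the gene was called higher (log2 fold change 0.92 ± 0.14, adjusted p = 0.000845), opposite to *CAT2*. *CAT2* made up 60.0%, 63.2% and 61.8% of catalase FPKM in *atg5-1* and 21.9%, 31.3% and 43.6% in *lon1-2atg5-1*. Every double mutant library had more *CAT3* than *CAT2* transcript per length and every *atg5-1* library had less. *CAT1* held 2.57% to 3.30% in all 6 libraries.

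**Figure D2:**
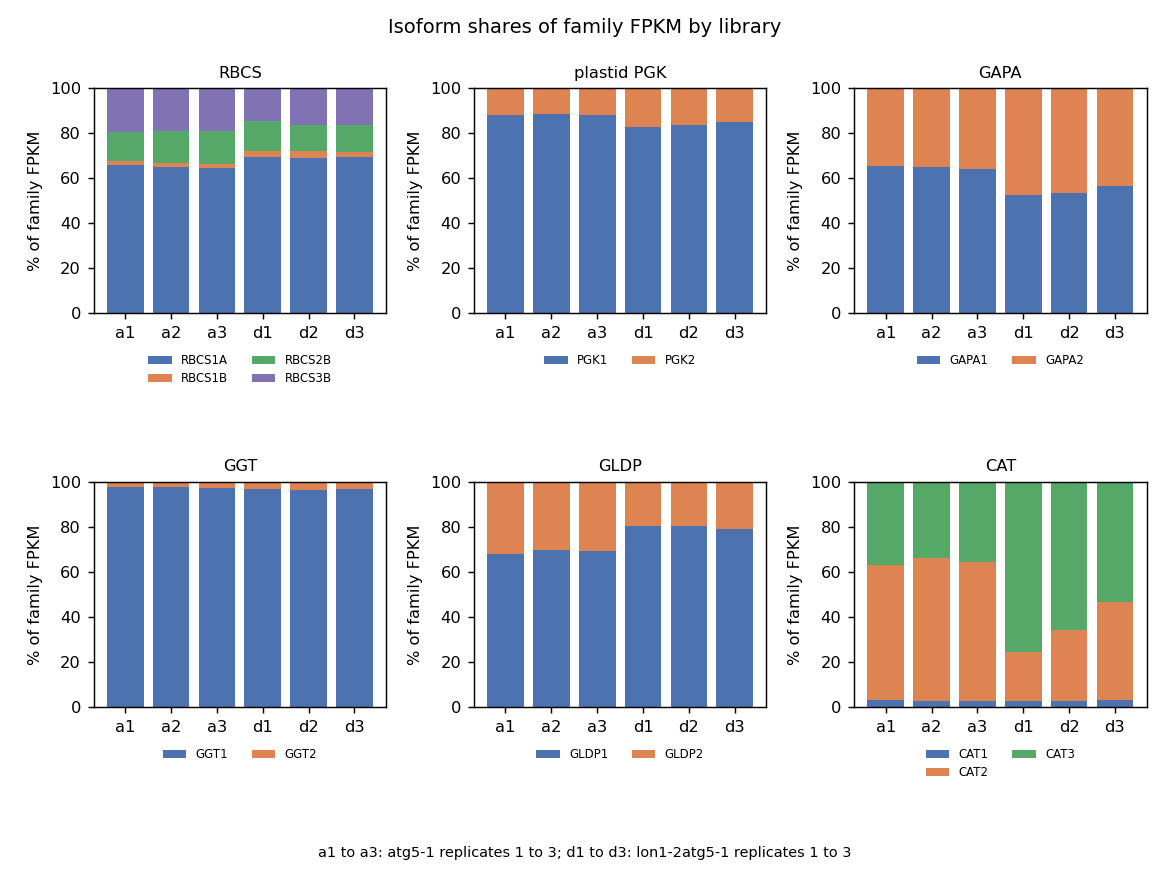
Percentage of the summed FPKM of 6 enzyme families taken by each gene copy (stacked bars) in each *atg5-1* library (a1 to a3) and *lon1-2atg5-1* library (d1 to d3). The share of *CAT2* was 60.0% to 63.2% in *atg5-1* and 21.9% to 43.6% in *lon1-2atg5-1*, and that of *GLDP2* was 29.9% to 32.0% and 19.5% to 20.7%.

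The 3 *lon1-2atg5-1* libraries differed from each other in the same order for nearly all of these genes. Replicate 1 was the lowest of the 3 for 35 of the 36 genes (97.2%) and replicate 3 the highest for 33 (91.7%), beside 37.4% and 35.6% of all genes tested. The median ratio of replicate 3 to replicate 1 was 1.34 over the 36 genes, 1.56 over the peroxisomal genes and 0.993 over all genes. The highest ratio was 1.96, for *CP12-2*, and only *GLDH2* had a ratio under 1, of 0.797. In *atg5-1* the ratio of the highest to the lowest library had a median of 1.08. Of all counts, the 37 genes took 7.48% to 7.80% for *atg5-1* and 6.76%, 7.66% and 8.37% in *lon1-2atg5-1* replicates 1, 2 and 3. The peroxisomal genes took 1.01% to 1.09% in *atg5-1* and 0.597%, 0.734% and 0.897% in the same replicates. The summed share of the peroxisomal genes was thus below *atg5-1* in each double mutant library, by an amount that depended on the library. This sum is weighted to the genes with most reads. The median log2 ratio of the peroxisomal genes to the *atg5-1* mean was -0.68, -0.32 and -0.02 in replicates 1, 2 and 3. In replicate 3, *GOX1*, *GOX2* and *GGT2* were above every *atg5-1* library, and *GGT1* and *CAT2* were below every one. Of 7 photosystem and light-harvesting markers, 1 was called higher (14.3%) and none lower, beside 14.0% and 13.7% of all genes tested. The median ratio of replicate 3 to replicate 1 was 0.844 over these markers.

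**Figure D3:**
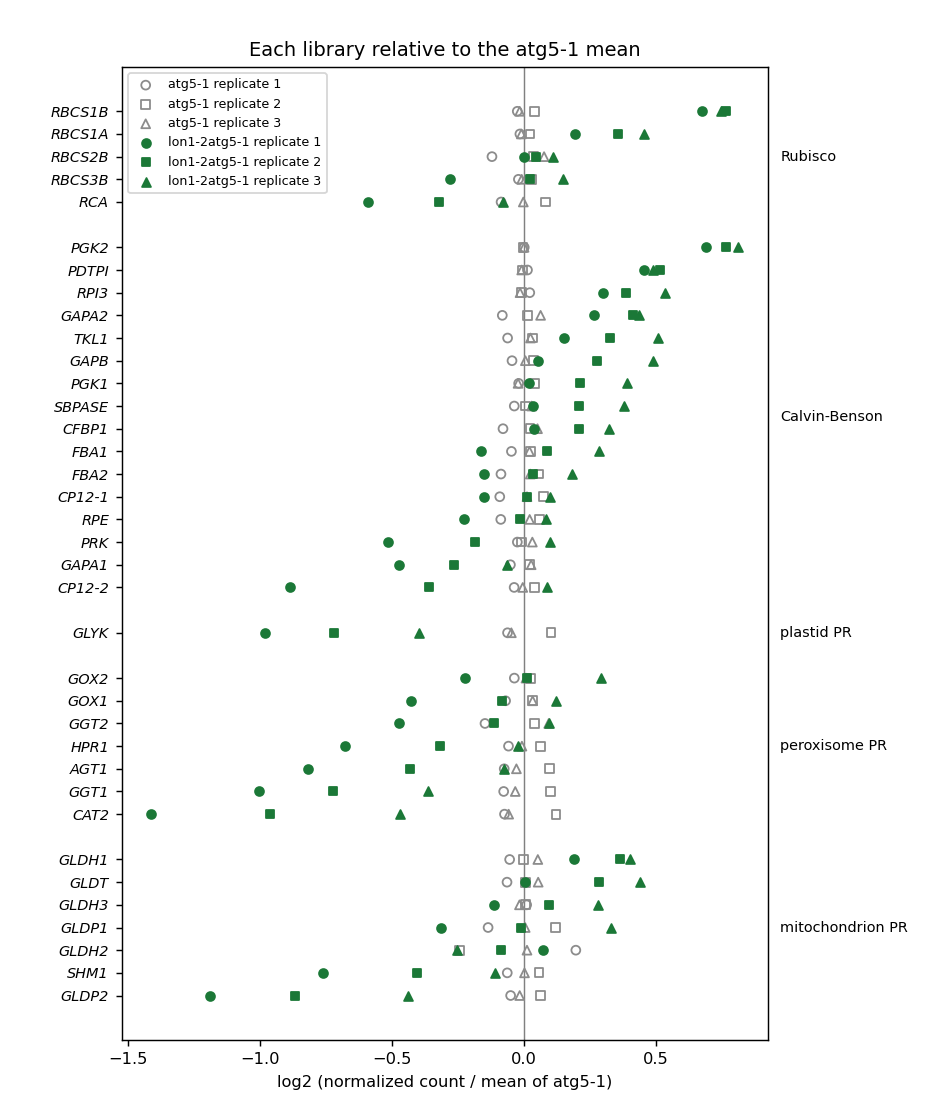
Log2 of the normalized count in each library divided by the mean of *atg5-1* (x axis) for the 36 genes tested, with open grey symbols for *atg5-1* and filled green symbols for *lon1-2atg5-1*, and a symbol shape for each replicate. The green circles (replicate 1) are the lowest of the 3 double mutant libraries for 35 genes and the triangles (replicate 3) the highest for 33.

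**Figure D4:**
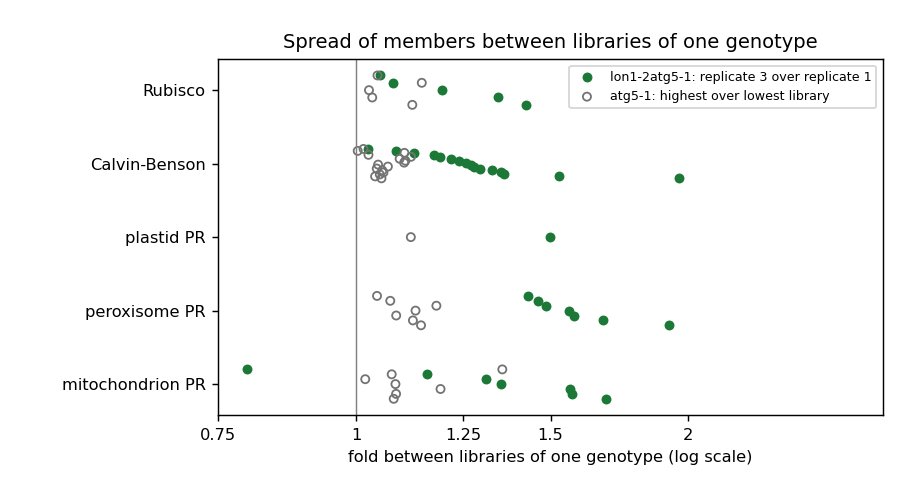
Ratio between libraries of the same genotype (log axis) for the 36 genes by step (PR, photorespiration), as replicate 3 over replicate 1 in *lon1-2atg5-1* (green) and as highest over lowest library in *atg5-1* (open circles). The median was 1.34 in *lon1-2atg5-1* and 1.08 in *atg5-1*, and the points for *CP12-2* and *CAT2* lie farthest to the right, at 1.96 and 1.92.

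The DNA upstream of called genes was read from TAIR10.1, as 250 bases before the start of the RefSeq gene, for genes at the ends of their groups and for *GLDP1* beside *GLDP2*, whose transcripts differed in response. The windows of *PGK2* and *GLYK* overlap exons of neighbouring genes and are not shown. Capitals mark the core of the I-box (GATAAG) or the G-box (CACGTG), searched on either strand, elements known from promoters of light-regulated genes. The windows are those of *RBCS1B* (chr5:15385321-15385570), *CAT2* (chr4:16703505-16703754), *GLDP2* (chr2:11114292-11114541) and *GLDP1* (chr4:15931423-15931672), all on the minus strand.
RBCS1B: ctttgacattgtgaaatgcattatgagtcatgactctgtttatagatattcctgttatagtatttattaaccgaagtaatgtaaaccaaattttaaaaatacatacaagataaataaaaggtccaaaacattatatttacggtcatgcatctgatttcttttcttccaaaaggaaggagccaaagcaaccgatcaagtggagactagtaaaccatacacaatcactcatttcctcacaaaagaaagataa
CAT2: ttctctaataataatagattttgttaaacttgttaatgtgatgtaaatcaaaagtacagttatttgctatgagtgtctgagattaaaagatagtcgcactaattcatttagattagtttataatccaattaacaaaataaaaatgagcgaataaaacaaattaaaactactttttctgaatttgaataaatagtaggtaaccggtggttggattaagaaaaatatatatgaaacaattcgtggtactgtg
GLDP2: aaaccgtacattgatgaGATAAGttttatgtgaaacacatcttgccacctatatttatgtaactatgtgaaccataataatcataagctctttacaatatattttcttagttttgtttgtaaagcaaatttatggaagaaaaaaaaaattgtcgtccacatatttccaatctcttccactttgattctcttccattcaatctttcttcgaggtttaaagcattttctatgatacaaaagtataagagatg
GLDP1: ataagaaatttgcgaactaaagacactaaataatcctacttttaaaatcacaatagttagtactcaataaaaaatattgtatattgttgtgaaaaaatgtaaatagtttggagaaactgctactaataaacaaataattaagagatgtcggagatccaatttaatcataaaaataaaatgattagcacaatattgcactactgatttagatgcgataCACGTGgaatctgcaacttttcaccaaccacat
The window of *GLDP2* holds 1 I-box core and no G-box, and that of *GLDP1* 1 G-box and no I-box core. Over the windows of the genes tested, 12.4% held the I-box core and 7.35% the G-box, against 5 and 6 of the 36 genes. Each window depends on the annotated start of its gene. *RBCS1B* has 1894 exonic bases for 546 coding bases, against 935 for 546 in *RBCS2B*. Whether the annotated starts are those used in these seedlings was not tested. The letters are a description of the window and say nothing on binding.

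Other genes of the pathway were counted from lists of partners and copies. Of 13 genes that move photorespiratory metabolites, recycle nitrogen or supply further subunits, 6 were called higher (46.2%) and 1 lower (7.69%), beside 14.0% and 13.7% of all genes tested. The largest rises were those of peroxisomal malate dehydrogenase *PMDH1* (0.80 on the log2 scale), the L protein of glycine decarboxylase *MTLPD1* (0.71) and the serine hydroxymethyltransferase *SHM2* (0.70). *PMDH1* and *SHM2* are minor copies, with means of 30.8 and 15.3 FPKM in *atg5-1* against 497 for *PMDH2* and 1458 for *SHM1*. *PMDH2* was below *atg5-1* in every double mutant library, by a log2 fold change of -0.44 ± 0.15 (adjusted p = 0.0406), under the fold threshold. *GLU1*, for the glutamate synthase that recovers photorespiratory ammonia, fell by 0.62 on the log2 scale (adjusted p = 0.00591). Its value was short of the fold threshold without *atg5-1* replicate 2 (-0.57) and without *lon1-2atg5-1* replicate 1 (-0.50). The normalized counts of *GLU1* were 50596, 58469 and 55040 in *atg5-1* and 29258, 34920 and 42422 in *lon1-2atg5-1*. As with *CAT2* and *GGT1*, the double mutant libraries lay below *atg5-1* and replicate 1 was the lowest.

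Copies of the enzymes that are not among the 37, many of them cytosolic, were counted apart. Of 27 such genes 5 were called higher (18.5%) and none lower, beside 14.0% and 13.7% of all genes tested. Cytosolic glyceraldehyde-3-phosphate dehydrogenase *GAPC1*, an enzyme of glycolysis, had normalized counts of 11658, 10303 and 10894 in *atg5-1* and 35889, 31499 and 27489 in *lon1-2atg5-1*. The groups were far apart, with a log2 fold change of 1.53 ± 0.11 (adjusted p = 3.39e-05), above any of the 36 genes. Cytosolic phosphoglycerate kinase *PGK3* and the transketolase *TKL2* each rose by 0.93 on the log2 scale (adjusted p = 0.000188 and 0.000511). Over the 27 copies the median log2 fold change was 0.37, and replicate 3 was the highest double mutant library for 10 of the 27, beside 35.6% of all genes. Of 6 transcription factors that regulate greening, 1 was called higher (16.7%) and none lower, beside 14.0% and 13.7% of all genes tested. This was *GLK1* (0.64 ± 0.21, adjusted p = 0.0316), with normalized counts of 664, 712 and 759 in *atg5-1* and 1341, 1274 and 713 in *lon1-2atg5-1*. The last of these lay within the range of *atg5-1*, and the call of *GLK1* held in 6 of 10 other fits and in 1 of 6 without a library (adjusted p up to 0.104). *GLK2* went the other way, and had a mean of 49.4 FPKM in *atg5-1* against 18.4 FPKM for *GLK1*. All its double mutant libraries were below *atg5-1*, by a log2 fold change of -0.38 ± 0.09 (adjusted p = 0.00728), under the fold threshold. Of the 6 factors, 3 were above 0 on the log2 scale and 3 below.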

How the data were processed

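RNA was sequenced from whole seedlings of 3 *atg5-1* and 3 *lon1-2atg5-1* libraries, grouped by their titles. The authors prepared stranded mRNA libraries, trimmed with Trimmomatic, aligned with HISAT2 and counted with HTSeq. The deposited counts are raw whole numbers per gene. The deposited FPKM values are credited to Cufflinks and equalled the count divided by exonic length and total count for all 23819 genes with a count, with lengths of TAIR10.1. The submitters' processing notes name TAIR10. Whether HTSeq used strand is not given in the sources used here.

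Genes were filtered with filterByExpr, scaled by TMM and fitted in edgeR 4.0.16 (R 4.3.3), whose quasi-likelihood F test gave p-values, with adjustment by Benjamini and Hochberg over 20157 genes. Errors of log2 fold changes are standard errors, computed as the absolute value divided by the square root of F. Within each genotype libraries differed beyond sampling noise. P-values rest on a spread per gene fitted to both genotypes together, although it was wider in *lon1-2atg5-1* (coefficient of variation 0.135) than in *atg5-1* (0.0631). Steps were run on simulated counts with the same spread in both genotypes, unlike these data, and no result here rests on that run.

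The members and the lists were chosen with earlier results of these data known. Values per library are given for called members, for the highest and lowest of each role group by fold change, and for copies of a called member. Those of *PDTPI* and *SHM1* were added after their values were seen. Of the other lists, up to 3 called genes in each direction are named, and *CAT3* and *PGLP1B* as copies of members. *PMDH2* and *GLK2* are named beside *PMDH1* and *GLK1*, and were added after their values were seen. Alternatives were DESeq2 1.42.0, the exact test, scaling by library size, other filters, removal of a gene length trend, limma 3.58.1 on FPKM, other fold thresholds, the replicate number as a block, and each library left out. Figures used matplotlib 3.10.9.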

Additional observations from a re-analysis of the deposited data

How the results depend on the processing

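The 6 called genes were also called in each of 10 other fits, and in 5 of 6 fits without 1 library. The exception was the fit without *lon1-2atg5-1* replicate 1, in which *GLYK* and *GGT1* fell short of the fold threshold. At a fold change over 2, none of the 36 genes was called in either direction (0 higher and 0 lower), against 1327 genes higher and 1513 lower over all genes. With no fold threshold, 8 of the 36 were higher, against 5575 genes higher and 5206 lower over all genes. Leaving out each library in turn gave 2 higher and 2 to 6 lower of the 36 genes. With no filter on low counts the median of the plastid photorespiratory genes moved from -0.68 to -0.26, since *PGLP1* then entered. Of the 30 uncalled genes, 11 changed sign in some fit. As a replicate block, the replicate number gave 5472 called genes and the same 6 of the 36. Deviations of libraries with the same number correlated at -0.04, -0.12 and -0.01, so no shared deviation was seen. Whether libraries with the same number were grown or prepared together is not stated in the sources used here, and these correlations cannot decide it. Each of the 36 genes had at least 566 normalized counts in every library.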
